A study of Mus musculus with 16 samples.

Results

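Beta cell disallowed genes are genes that most tissues transcribe and that mature pancreatic beta cells keep low. The best known are Ldha and Slc16a1. The first encodes the lactate dehydrogenase subunit that favours conversion of pyruvate to lactate, and the second encodes MCT1, which carries lactate and pyruvate across the plasma membrane. Low levels of both, and of hexokinases with high affinity for glucose such as Hk1, are thought to keep insulin release tied to glucose oxidation. The 10 genes described here, Ldha, Slc16a1, Hk1, Acot7, Oat, Mgst1, Igfbp4, Smad3, Itih5 and Zdhhc9, were taken by symbol from a list of such genes, and all 10 were found among the 24091 genes of both count tables.

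Polyadenylated RNA had been sequenced from 4 groups of mice. The islets were hand-picked from males at 60 weeks of age, 5 with the genotype Pdx1:Cre;Tff2fl/fl (KO) and 5 with Tff2fl/fl (control), 1 mouse per library. The whole pancreata were dissected at embryonic day 16.5 (E16.5), dorsal and ventral lobes together, 3 with Pdx1:Cre;Tff2fl/fl (KO) and 3 with Tff2fl/fl (control). Every mouse therefore carried the floxed alleles of Tff2, which encodes the secreted peptide trefoil factor 2, and the controls lacked Cre. Cre was expressed from a Pdx1 promoter, which is active in the pancreatic epithelium, so that cells outside this lineage were not targeted.

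Total counts ranged from 22595400 to 32385042 per islet library and from 14866194 to 22699934 per pancreas. Tff2 had 0, 12, 16, 8 and 2 reads in KO islets and 25, 69, 30, 135 and 62 reads in control islets. In the pancreata it had 51, 147 and 27 reads in KO embryos and 848, 406 and 611 reads in controls, so that the libraries of both tissues matched their genotype labels. The edgeR log2 fold change of Tff2, KO over control, was -3.07 in islets (adjusted p = 0.0884) and -2.80 in pancreas (adjusted p = 0.0297). Marker genes matched the labelled tissues. Summed CPM (reads of a gene relative to the TMM-scaled library size) of 12 beta and endocrine genes was 8011% of the control pancreas level in control islets, while that of 11 acinar genes was 1.51% and that of 8 mesenchyme genes was 1.46%. KO pancreas 18 stood apart by sex, with 1.38 CPM of Xist against at least 973 CPM in the other pancreata, and all 10 islet libraries were male. KO pancreas 01 stood apart by liver genes, with 542 CPM of Alb and 533 CPM of Afp against at most 89.9 and 81.7 CPM in the other pancreata.

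The promoters of the lactate pair are shown because these 2 genes fell together in islets and because both hold the letters ACGTG, the core of the hypoxia response element. The sequences run 5′ to 3′ on the plus strand of RefSeq GRCm38.p6, from 250 bases before to 50 bases after the gene start, with each ACGTG, read on either strand, in capitals. Ldha lies at chr7:46845554-46845853 and Slc16a1 at chr3:104638414-104638713.
Ldha: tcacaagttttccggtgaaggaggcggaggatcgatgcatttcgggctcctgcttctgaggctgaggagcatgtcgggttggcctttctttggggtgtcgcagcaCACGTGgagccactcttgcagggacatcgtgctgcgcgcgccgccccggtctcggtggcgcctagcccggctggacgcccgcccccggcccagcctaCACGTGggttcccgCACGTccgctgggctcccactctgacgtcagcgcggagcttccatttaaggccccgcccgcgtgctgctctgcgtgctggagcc
Slc16a1: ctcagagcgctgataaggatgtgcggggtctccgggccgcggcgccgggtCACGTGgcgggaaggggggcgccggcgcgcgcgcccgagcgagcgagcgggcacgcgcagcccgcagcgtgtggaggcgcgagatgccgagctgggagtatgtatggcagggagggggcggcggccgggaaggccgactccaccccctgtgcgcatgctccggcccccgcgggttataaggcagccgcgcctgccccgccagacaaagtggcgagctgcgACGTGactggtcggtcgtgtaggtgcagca
The Ldha window holds 5 matches and the Slc16a1 window 3, counting the palindrome CACGTG, a binding sequence of Myc and related factors, once on each strand. CACGTG itself occurs 2 times in the Ldha window and 1 time in that of Slc16a1. ACGTG was found in 5 of the 13 promoters of the 10 genes, against 19.6% of 32851 mouse promoters of the same length, and CACGTG in 7.15% of them. Besides the lactate pair, ACGTG was found at Oat, at Zdhhc9 and at the second listed start of Hk1. A second listed start of Ldha, at chr7:46846832-46847131, is not shown and holds 0 matches. These matches are descriptions of the sequence only.

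In mouse beta cells Slc16a1 is also known as a target of the miR-29 family, whose members share their seed. Mature sequences from RefSeq, with the seed (bases 2 to 8) in capitals, are given beside the matching site in the 3′ untranslated region of Slc16a1, in which the capitals mark the letters complementary to the seed.
mmu-miR-29a-3p: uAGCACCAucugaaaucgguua
mmu-miR-29b-3p: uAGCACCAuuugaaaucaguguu
mmu-miR-29c-3p: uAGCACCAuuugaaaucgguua
Slc16a1 site: agtctaccagTGGTGCTcagtg
The site lies at chr3:104655786-104655807 (GRCm38, plus strand). Igfbp4 had 2 such matches, Itih5 had 1, and the other 7 genes had none. Among untranslated regions of similar length, 24.4% held a match for Slc16a1, 24.6% for Igfbp4 and 39.2% for Itih5. No microRNA was measured in these libraries.

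The first comparison asked how far the disallowed genes lay below fetal pancreas in adult islets, using controls only. All 10 genes were lower in control islets, and no control islet reached the lowest control pancreas in any of them, which held for 42.2% of all genes. Falls were common here, since 44.7% of the 15388 genes tested were called lower and 41.8% higher at an adjusted p under 0.05, so the sizes are given beside the counts. At least 4-fold falls were called in 8 of the 10, against 16.7% of all genes tested, at least 8-fold falls in 6, against 11.4%, and at least 16-fold falls in 5, against 7.98%. The median log2 fold change was -4.16 over the 10 genes and -0.04 over all genes tested. The 2 groups differ in tissue, age, sex, isolation and count table, and these cannot be told apart. In bulk RNA, fewer cells of a type and less RNA per cell cannot be told apart either.

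**Figure D1:**
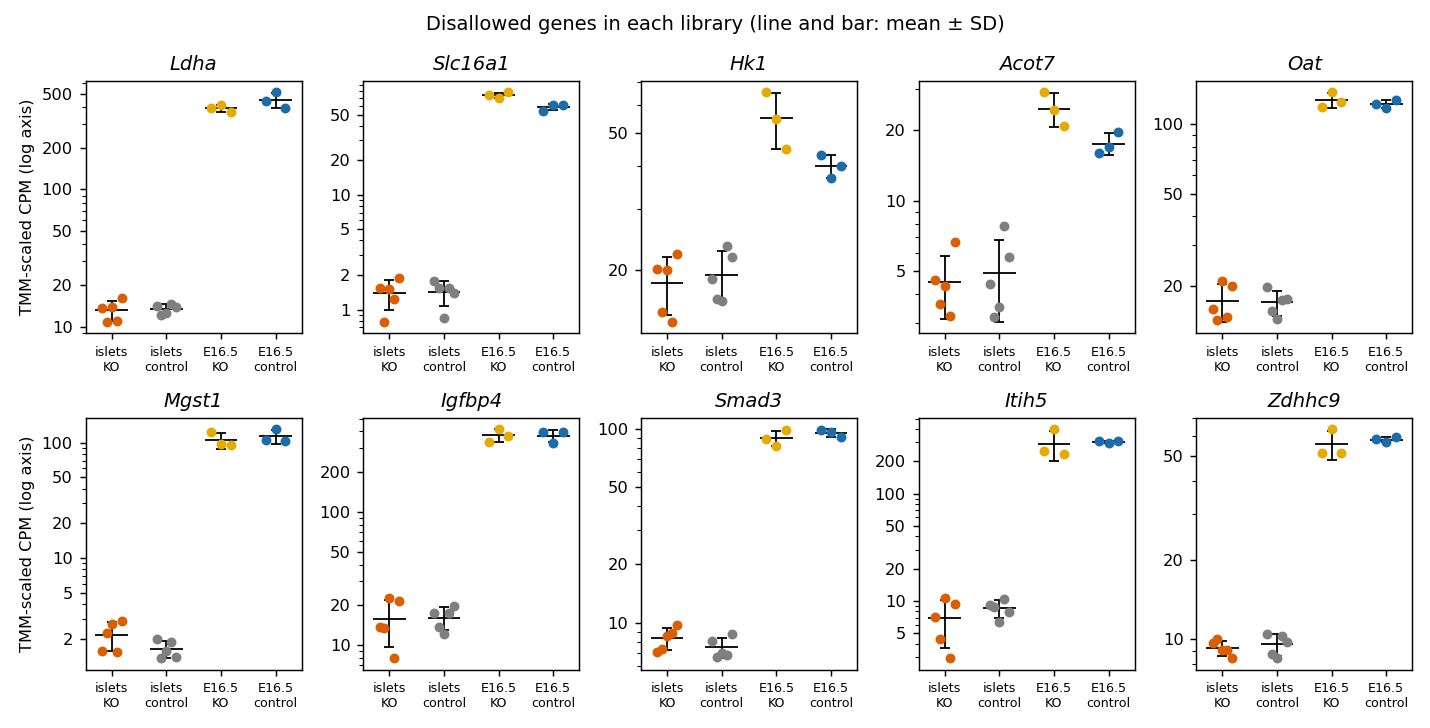
TMM-scaled CPM on a log axis for the 10 disallowed genes. Each point is 1 library, in KO islets, control islets, KO pancreata and control pancreata from left to right, with lines and bars for the mean ± SD. In each gene all 10 islet libraries lie below all 6 pancreata, and Hk1 shows the narrowest gap.

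Ldha had 14.2, 12.1, 12.6, 14.6 and 13.9 CPM in the control islets 052, 826, 829, 857 and 858, against 440, 510 and 394 CPM in the control pancreata 02, 08 and 13. The groups were far apart, with a 34.3-fold lower level in islets (log2 fold change -5.10, SE 0.090, edgeR adjusted p = 1.0e-13). Per kilobase, Ldha in control islets was above 55.4% of 15823 genes in the median library, whereas in control pancreata it was above 99.1%. Ldha was among the most abundant transcripts of the fetal pancreas and near the middle of the range in islets. Ldhb, the other main subunit, had 13.7 ± 1.73 CPM in control islets (SD, n = 5) and 14.1 ± 1.54 CPM in control pancreata (SD, n = 3), and did not pass the test (log2 fold change -0.09, adjusted p = 0.455).

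Within each library the counts per kilobase of Ldha relative to Ldhb were 0.606, 0.592, 0.776, 0.698 and 0.675 in control islets, against 19.5, 27.8 and 18.1 in control pancreata. Per kilobase, Ldhb therefore exceeded Ldha in every control islet library and Ldha exceeded Ldhb in every control pancreas. The order in islets depended on the gene lengths. In reads, Ldha was above Ldhb in control islets 829 (361 against 314) and 857 (389 against 376), and both had 328 in 858. The exact two-sided permutation p of the ratio per kilobase was 0.0357, the smallest that 5 against 3 libraries can give. It was 0.143 after adjustment over 24 such tests.

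Slc16a1 had 1.76, 1.54, 0.838, 1.53 and 1.40 CPM in control islets, from 24 to 41 reads per library, against 54.0, 60.2 and 61.2 CPM in control pancreata. It was 43.2-fold lower in islets (log2 fold change -5.43, SE 0.129, adjusted p = 8.9e-13). Per kilobase it was above 15.5% of genes in the median control islet, the lowest rank of the 10, and above 72.3% in the median control pancreas. Its relatives differed in degree. Slc16a3, which encodes the lactate exporter MCT4, was 61.3-fold lower and rested on 33 reads over the 5 control islets. Slc16a7, which encodes MCT2, was 3.601-fold lower, and Bsg, the chaperone that brings MCT1 and MCT4 to the membrane, 1.51-fold lower.

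Slc16a1 per Slc16a7 (counts per kilobase) was between 0.258 and 0.467 in control islets and between 3.59 and 4.58 in control pancreata, with no overlap and the same exact p of 0.0357, 0.143 after adjustment. Slc16a1 per Slc16a3 was 3.35 ± 1.29 in control islets (SD, n = 5) and 2.09 ± 0.245 in control pancreata (SD, n = 3), and these groups overlapped (exact p = 0.286). Ldha per Slc16a1 was likewise not distinguished, with 23.2 ± 6.73 in control islets and 17.7 ± 2.50 in control pancreata (exact p = 0.214).

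Hk1 had 18.9, 16.5, 16.4, 23.6 and 21.9 CPM in control islets, against 43.1, 37.0 and 40.2 CPM in control pancreata. This was the smallest fall of the 10, 2.13-fold (log2 fold change -1.09, SE 0.114, adjusted p = 1.4e-06), although the groups did not overlap. Hk2 and Hkdc1, further hexokinases, fell by more. Hk2 was 53.5-fold lower in islets, and Hkdc1 was down to 6 reads over the 5 control islets, against 3740 reads over the 3 control pancreata.

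Hk1 per Hk2 (counts per kilobase) ran from 8.16 to 17.1 in control islets and from 0.443 to 0.546 in control pancreata. Hk1 was thus the more abundant of the pair in every control islet library and the less abundant in every control pancreas, without overlap (exact p = 0.0357, 0.143 after adjustment).

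**Figure D2:**
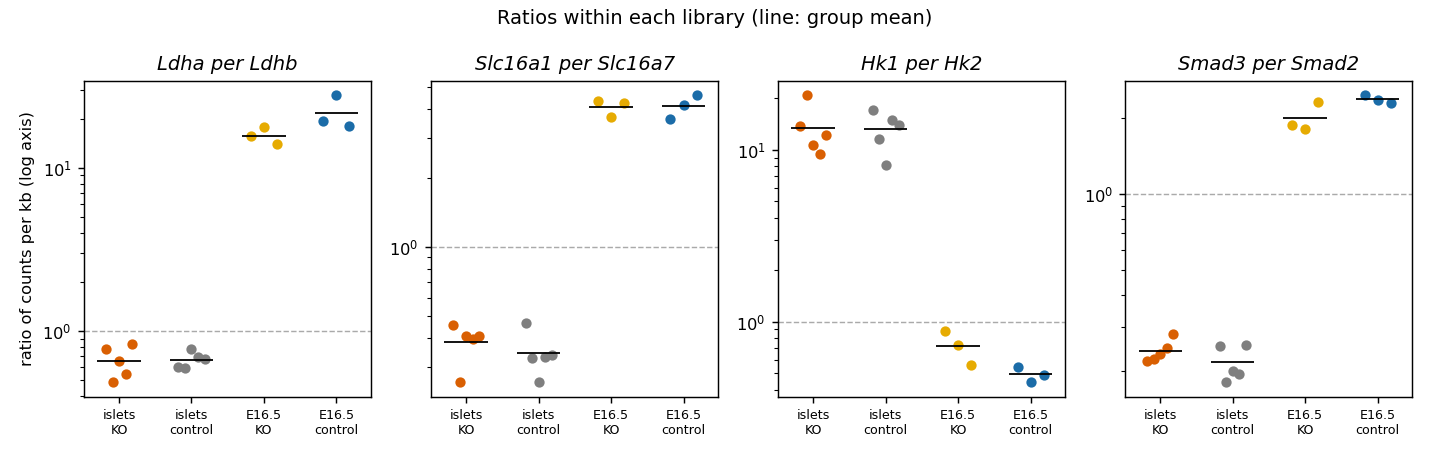
Ratios of counts per kilobase within each library, on a log axis with a dashed line at 1; points are libraries and lines are group means. Ldha per Ldhb, Slc16a1 per Slc16a7 and Smad3 per Smad2 are low in islets and Hk1 per Hk2 is high. Hk1 per Hk2 is between 0.558 and 0.886 in KO pancreata and between 0.443 and 0.546 in control pancreata.

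The remaining enzymes covered a wide range. Mgst1, a glutathione transferase of the endoplasmic reticulum and outer mitochondrial membrane, had the largest fall of the 10. It had 2.00, 1.36, 1.57, 1.87 and 1.40 CPM in control islets, from 30 to 50 reads per library, against 105, 131 and 104 CPM in control pancreata, and was 71.1-fold lower (log2 fold change -6.15, SE 0.112, adjusted p = 1.3e-13). Mgst3 was 2.93-fold lower, and Mgst1 per Mgst3 (counts per kilobase) was 0.190 ± 0.0340 in control islets and 4.63 ± 0.870 in control pancreata, with no overlap.

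Oat, the mitochondrial ornithine aminotransferase, had 19.9, 15.6, 14.4, 17.4 and 17.5 CPM in control islets, against 122, 117 and 127 CPM in control pancreata. It was 7.43-fold lower (log2 fold change -2.89, SE 0.082, adjusted p = 4.1e-12) and still above 58.5% of genes per kilobase in the median control islet. Among the other ornithine and proline enzymes tested, 6 of 8 were lower and 2 higher.

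Acot7, a thioesterase that cleaves long-chain acyl-CoA, had 4.42, 3.18, 3.53, 7.79 and 5.74 CPM in control islets, against 15.98, 17.0 and 19.6 CPM in control pancreata. Its fall of 3.66-fold (log2 fold change -1.87, SE 0.224, adjusted p = 5.2e-06) had the largest error of the 10, and control islet 857 held more than any other islet library. Zdhhc9, a palmitoyltransferase of the Golgi encoded on the X chromosome, was 6.30-fold lower, with 8.41 to 10.5 CPM in control islets against 56.6 to 59.0 CPM in control pancreata. The family it belongs to did not fall as a whole: of the 21 genes tested among the other Zdhhc genes and the partner Golga7, 8 were lower and 11 higher, and Zdhhc2 rose by 3.93 on the log2 scale.

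The signalling and matrix genes fell by 13.3-fold or more. Igfbp4, a secreted protein that binds insulin-like growth factors, had 17.4, 13.5, 12.1, 17.4 and 19.5 CPM in control islets, against 394, 329 and 393 CPM in control pancreata (log2 fold change -4.59, SE 0.133, adjusted p = 5.2e-12). Itih5, a heavy chain of the inter-alpha-trypsin inhibitor family that binds hyaluronan in the matrix, had 9.22, 8.72, 6.32, 10.5 and 7.95 CPM in control islets, against 308, 295 and 306 CPM in control pancreata (log2 fold change -5.20, SE 0.115, adjusted p = 5.1e-13). The groups did not overlap in either gene, whose islet levels were 4.16% and 2.72% of that in control pancreata.

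Smad3, a transducer of TGF beta and activin signals, had 8.08, 6.63, 7.02, 6.85 and 8.72 CPM in control islets, against 99.3, 96.3 and 91.0 CPM in control pancreata (log2 fold change -3.73, SE 0.080, adjusted p = 3.9e-13). Its partner Smad2, activated by the same receptors, was lower by only 1.21-fold, and Smad4, the shared partner of both, did not pass the test (log2 fold change 0.04, adjusted p = 0.447). Smad3 per Smad2 (counts per kilobase) was 0.217 ± 0.0339 in control islets (SD, n = 5) and 2.36 ± 0.0818 in control pancreata (SD, n = 3), without overlap. The IGF ligands that Igfbp4 binds were lower still, Igf1 by 259-fold and Igf2 by 189-fold. In the list of 13 related IGF genes that holds them, 8 were lower and 5 higher.

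All 7 genes of a separate list reported as low in beta cells were lower in control islets. Pdgfra, a receptor of mesenchymal cells, was 51.2-fold lower, the chemokine gene Cxcl12 21.2-fold and the transcriptional coactivator gene Yap1 15.1-fold. The list had a median log2 fold change of -4.60. Of 10 hypoxia response genes 6 were lower and 3 higher, and Car9 and Egln3 had log2 fold changes of -9.47 and -6.02. Vegfa, Bnip3 and Ankrd37 went the other way, with means of 496, 78.4 and 5.82 CPM in control islets. In control pancreata they had 86.5, 18.4 and 2.34 CPM. Of 12 genes of beta cell glucose metabolism 8 were higher, 3 were lower and 1 did not pass, with a median of 1.10. In this list G6pc2, a glucose-6-phosphatase subunit, and Slc2a2, the glucose transporter GLUT2, rose by 6.63 and 4.71. Mpc1 and Mpc2, subunits of the mitochondrial pyruvate carrier, went opposite ways, with a rise of 4.21 and a fall of 0.60. Mpc1 had only 54 reads over the 3 control pancreata, and 28.0% of its 50-base windows recur in genes elsewhere. Such genes stood apart between the count tables, as described below, and the part of counting in this rise was not tested.

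**Figure D3:**
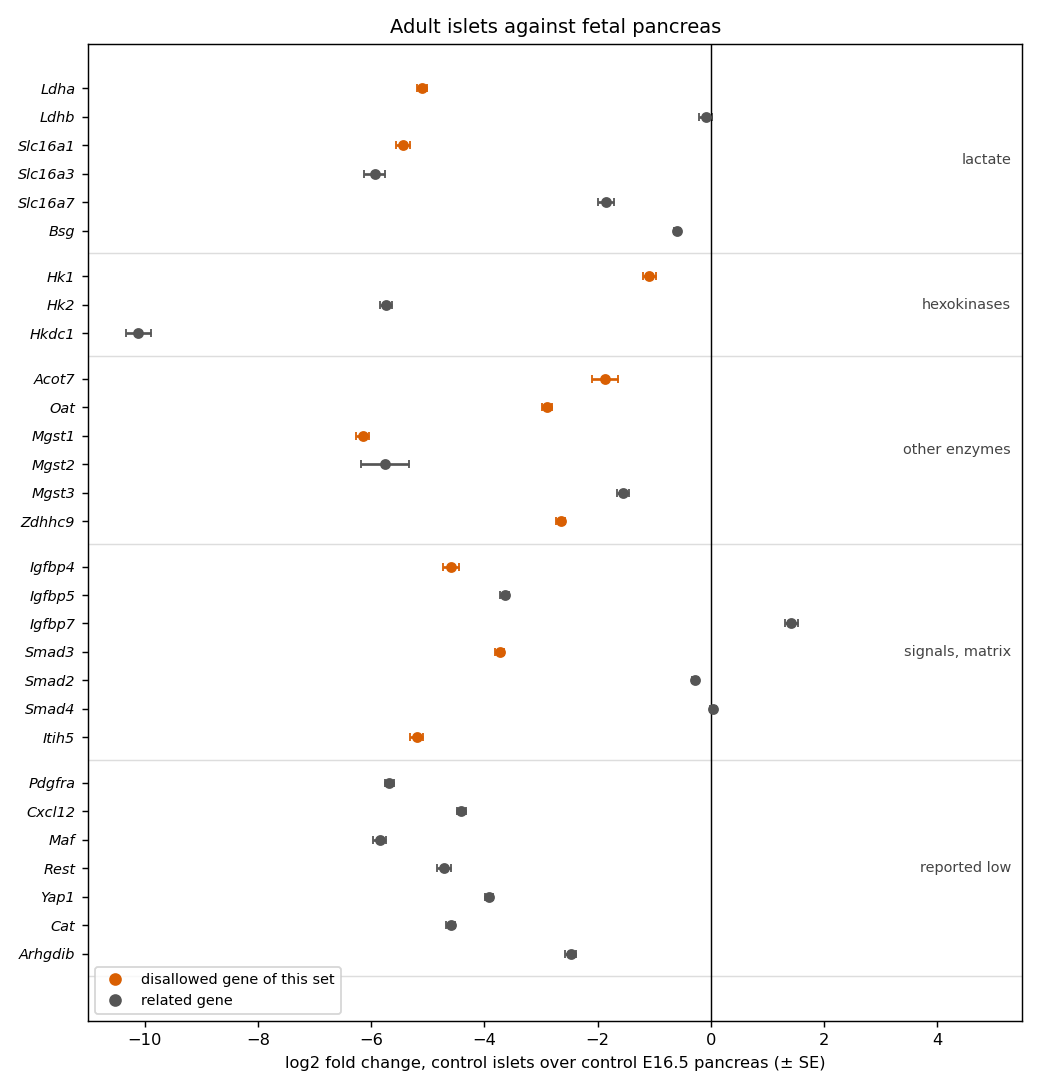
Log2 fold change of control islets (n = 5) over control E16.5 pancreata (n = 3), with bars of 1 SE, for the 10 disallowed genes and related genes. The disallowed genes lie between -6.15 for Mgst1 and -1.09 for Hk1, while Ldhb, Smad2 and Smad4 lie near 0.

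The level that remained in islets differed among the genes. It was 1.41% of the control pancreas level for Mgst1, 2.31% for Slc16a1, 2.72% for Itih5, 2.91% for Ldha and 4.16% for Igfbp4. It was 7.54% for Smad3, 13.5% for Oat, 15.9% for Zdhhc9, 27.4% for Acot7 and 47.0% for Hk1. Beside these stand the summed acinar genes at 1.51%, mesenchyme genes at 1.46% and duct genes at 6.64%, which were lower in 10 of 11, 8 of 8 and 6 of 6 genes. Endothelium genes summed to 118%, with 3 of 6 lower and 3 higher. Leukocyte genes summed to 121%, although 5 of 6 were lower (median log2 fold change -1.28). The one that rose, Cd74, had 147 ± 14.3 CPM in control islets (SD, n = 5) and 9.81 ± 1.84 CPM in control pancreata (SD, n = 3). The part of cell makeup in each remaining level was not tested.

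Genes with near-identical copies elsewhere in the genome stood apart between the count tables, and whether the counting differed was not tested. Gapdh had 276 ± 16.4 CPM in control islets (SD, n = 5) and 1.19 ± 0.192 CPM in control pancreata (SD, n = 3). The median log2 fold change was 1.56 over the 173 genes in which more than 50% of the 50-base windows recur base for base in an annotated gene elsewhere. It was 0.35 over the 1188 genes in which 5 to 50% recur, and -0.10 over the 13751 genes in which fewer than 5% recur. Ldha, Ldhb and Mpc1, with 20.8%, 21.7% and 28.0% of their windows, were in the middle class. The other 9 disallowed genes were in the class under 5%. With only the genes of the class under 5% in the fit, which was tried after the data had been seen, these 9 were each called lower in islets.

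Among the 10 islet libraries, the residual level of some disallowed genes moved with the mesenchyme genes Col1a1, Col1a2, Col3a1, Pdgfra, Pdgfrb, Dcn, Lum and Vim. Their summed CPM was 213, 147, 309, 100 and 275 in the KO islets 055, 122, 803, 812 and 845, against 207, 192, 205, 234 and 241 in control islets. KO islets 812 and 122 had the lowest sums and KO islets 803 and 845 the highest, with the controls between them. Igfbp4 in the KO islets, in the same order, had 13.5, 13.4, 22.4, 7.91 and 21.3 CPM, and Itih5 had 7.06, 4.38, 10.7, 2.92 and 9.32 CPM. Both were lowest in KO islet 812 and highest in KO islet 803.

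Over the 10 libraries Pearson's r with the mesenchyme sum was 0.917 for Igfbp4 (permutation adjusted p = 0.0161, Spearman's rho 0.891, adjusted p = 0.0760) and 0.922 for Itih5 (permutation adjusted p = 0.0238, rho 0.806, adjusted p = 0.104). It was 0.849 for Ldha (permutation adjusted p = 0.0238, rho 0.818, adjusted p = 0.104) and 0.820 for Hk1 (permutation adjusted p = 0.0238, rho 0.830, adjusted p = 0.104). These 4 of 70 relations, 10 genes by 7 marker lists, passed by Pearson's r, and 0 passed by Spearman's rho. Without the 2 libraries farthest from the median sum, r was 0.732 for Igfbp4, 0.777 for Itih5, 0.943 for Ldha and 0.860 for Hk1. Over all 10 libraries Oat gave 0.743 (permutation adjusted p = 0.107, rho 0.867, adjusted p = 0.0760) and Acot7 0.613 (rho 0.721). Slc16a1 and Mgst1 gave 0.477 and 0.425, and Smad3 and Zdhhc9 gave 0.10 and -0.07. None of these passed.

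**Figure D4:**
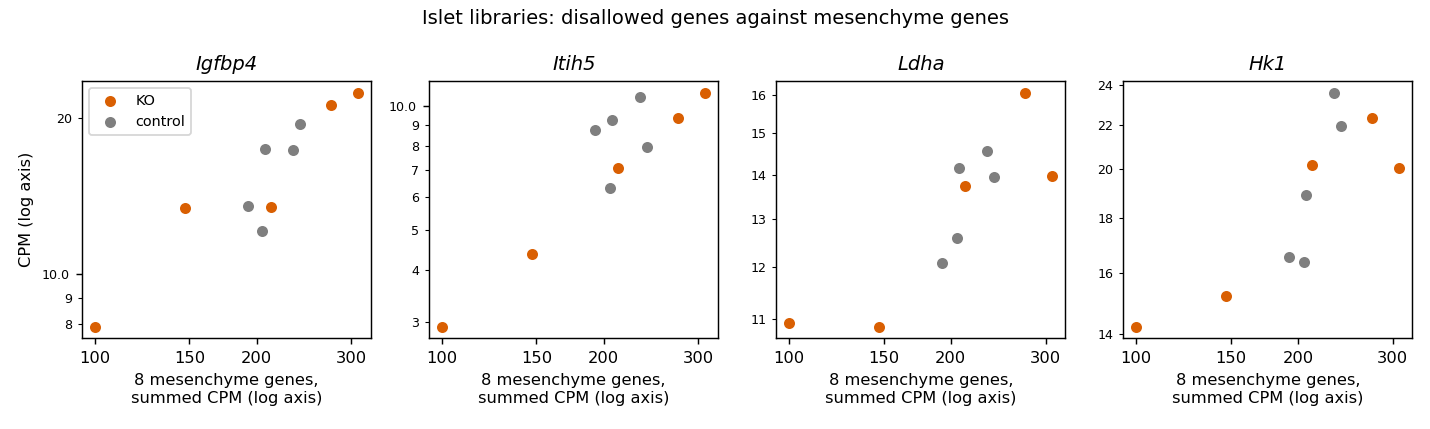
CPM of Igfbp4, Itih5, Ldha and Hk1 against the summed CPM of 8 mesenchyme genes in the 10 islet libraries, KO and control, both axes log. KO islet 812, with the lowest sum of 100, also has the lowest Igfbp4, Itih5 and Hk1.

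The second comparison asked whether the disallowed genes differed between KO and control. Every KO carried Pdx1:Cre and no control did, so loss of Tff2 and presence of Cre cannot be told apart. In 60-week islets, 0 of the 10 passed the edgeR test, against 0.155% of 14219 genes, and 0 had an unadjusted p under 0.05, against 7.18% of genes. DESeq2 called 0 of them. KO and control islets overlapped in all 10 genes. The log2 fold changes lay between -0.30 for Itih5 and 0.41 for Mgst1, with a median of -0.03 over the 10 genes and 0.00 over all genes.

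Ldha had 13.7, 10.9, 14.0, 10.9 and 16.1 CPM in KO islets, within and around the 12.1 to 14.6 CPM of control islets. The log2 fold change was -0.04, with a 95% interval from -0.25 to 0.17. Slc16a1 had 1.53, 0.785, 1.51, 1.246 and 1.89 CPM in KO islets, with 19 to 47 reads per KO library and an interval from -0.50 to 0.48. For Hk1 the KO islets had 20.2, 15.2, 20.04, 14.2 and 22.3 CPM, with an interval from -0.35 to 0.19. A change of the size seen between tissues lies outside each of these intervals, whereas small changes do not.

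Mgst1 had the lowest p of the 10, 0.070 before and 0.722 after adjustment. The KO islets had 1.57, 2.23, 2.69, 1.53 and 2.86 CPM and the control islets 2.00, 1.36, 1.57, 1.87 and 1.40 CPM, so that 3 KO islets were above all controls and the other 2 were among them. Its interval, from 0.0053 to 0.82, was the only one of the 10 without 0. These intervals take a multiple of the SE from the normal distribution and are narrower than the F test allows, by which Mgst1 did not pass. Itih5 had the largest SE of the 10, with 2.92 to 10.7 CPM in KO islets against 6.32 to 10.5 CPM in control islets (adjusted p = 0.881), along with the mesenchyme genes described above. The intervals of the other genes were -0.21 to 0.26 for Oat, -0.64 to 0.36 for Acot7, -0.48 to 0.45 for Igfbp4, -0.06 to 0.37 for Smad3, -0.20 to 0.12 for Zdhhc9 and -0.86 to 0.26 for Itih5. Among the related genes tested in islets only Ambp, the light chain partner of the inter-alpha-trypsin inhibitors, passed the test, with a rise of 0.47 (adjusted p = 0.0188).

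In E16.5 pancreas 1 of the 10 genes passed the test, against 6.43% of 14914 genes, and it was higher, as were 3.75% of all genes. Slc16a1 had 73.8, 69.7 and 78.1 CPM in the KO pancreata 01, 18 and 19, against 54.0, 60.2 and 61.2 CPM in control pancreata 02, 08 and 13. All KO pancreata were above all controls, and the gene rose 1.28-fold (log2 fold change 0.36, SE 0.070, adjusted p = 0.0318). The call was lost without control 02, 08 or 13 or without KO 19, with adjusted p = 0.150, 0.114, 0.0767 and 0.0628, while the fold change stayed between 0.30 and 0.39.

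Acot7 and Hk1 had larger fold changes but did not pass. Acot7 had 28.99, 24.3 and 20.9 CPM in KO pancreata and 15.98, 17.0 and 19.6 CPM in controls (log2 fold change 0.51, SE 0.136, adjusted p = 0.0619). Hk1 had 65.3, 54.9 and 44.8 CPM in KO pancreata and 43.1, 37.0 and 40.2 CPM in controls (log2 fold change 0.47, SE 0.133, adjusted p = 0.0721). Neither gene overlapped between groups, so that 3 of the 10 genes lay wholly above the controls, against 13.6% of all genes. DESeq2 called both, with adjusted p = 0.0138 and 0.0111.

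Neural and glial genes were also higher in sum in KO pancreata. Their summed CPM over 7 genes was 324, 164 and 95.8 in KO pancreata 01, 18 and 19, against 51.7, 49.1 and 46.9 in controls, and 5 of the 7 rose, 1 fell and 1 did not pass. Dbh and Th, which encode enzymes of catecholamine synthesis, rose by 7.61 and 3.68 on the log2 scale. The order of the KO pancreata was the same for this sum, for Acot7 and for Hk1, but not for Slc16a1, which was highest in KO 19. Among the control pancreata the order was not shared. Acot7 was lowest in control 02, where the sum was highest, and Hk1 was lowest in control 08. Liver genes were also highest in KO 01, with a summed CPM over 6 genes of 1351, 268 and 345 in KO pancreata 01, 18 and 19, against 347, 353 and 461 in controls. Of these 6 genes 1 fell and 5 did not pass. In control islets the same sum was 281% of the control pancreas level, although Alb had at most 1.09 CPM there. The sum therefore does not measure liver tissue alone. Without KO 01 the log2 fold changes were 0.39 for Acot7, 0.33 for Hk1 and 0.36 for Slc16a1, with adjusted p = 0.0850, 0.0909 and 0.0365. The part of neural or liver tissue in these values was not tested.

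The other 7 genes overlapped between KO and control pancreata. Ldha had 393, 414 and 368 CPM in KO pancreata and 440, 510 and 394 CPM in controls (log2 fold change -0.18, 95% interval -0.37 to 0.02, adjusted p = 0.314). Igfbp4, Itih5, Zdhhc9 and Oat were each highest in KO 18, the male embryo, with 416, 398, 63.4 and 137 CPM. KO 01 and KO 19 had 333 and 370, 247 and 232, 51.5 and 51.4, and 119 and 124 CPM. Among the KO pancreata Ldha was also highest in KO 18, and the remaining genes were not. KO 18 also had the highest mesenchyme sum, 19401 CPM, against 13681 and 15294 CPM in the other KO pancreata. Without KO 18, Itih5 had a log2 fold change of -0.32 and passed the test (adjusted p = 0.0439). Oat, Mgst1 and Smad3 had log2 fold changes of 0.07, -0.09 and -0.08. Scaling to summed pan-epithelial genes, which moved the median of all genes by 0.42, put Slc16a1 at 0.77 and Ldha at 0.25. It called 9 of the 10 higher, all but Itih5, where 9932 of 14914 genes were called in either direction. With TMM, 10 of the 15 pan-epithelial genes were themselves called lower in KO pancreata and 0 higher.

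Of the 12 genes of beta cell glucose metabolism 3 fell in KO pancreata and 9 did not pass, and G6pc2 and Slc2a2 fell by 1.12 and 0.87 on the log2 scale (adjusted p = 0.0116 and 0.0166). Hk1 per Hk2 (counts per kilobase) was 0.723 ± 0.164 in KO pancreata and 0.492 ± 0.0520 in control pancreata (SD, n = 3 each), and the groups did not overlap, also without KO 01. The exact permutation p was 0.10, the smallest that 3 against 3 can give, and 0.218 after adjustment. Summed beta and endocrine genes stood at 45.4% of control in KO pancreata, acinar genes at 64.7% and duct genes at 70.2%. The part of this cell makeup in the ratio was not tested. Of the 7 further genes reported as low in beta cells, Arhgdib rose by 0.54 (adjusted p = 0.0432) and the other 6 did not pass.

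**Figure D5:**
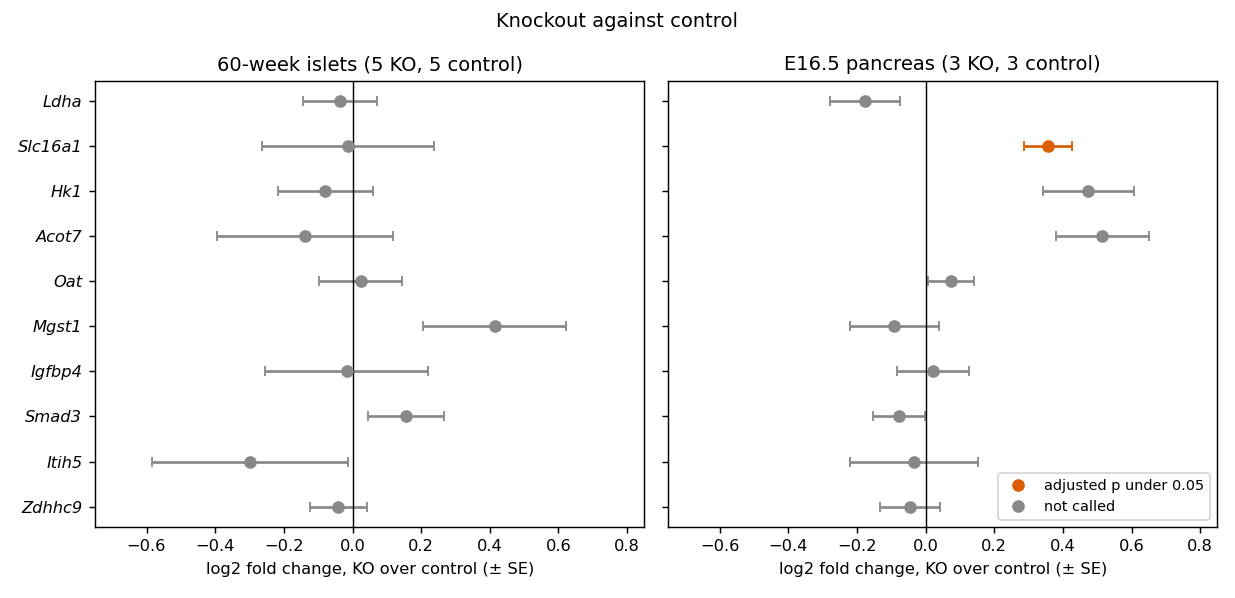
Log2 fold change of KO over control with bars of 1 SE for each disallowed gene, in 60-week islets and in E16.5 pancreas. Slc16a1 in pancreas, at 0.36, is the only value past an adjusted p of 0.05; Acot7 and Hk1 in pancreas lie at 0.51 and 0.47.

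The difference between the 2 genotype effects, islets minus pancreas, was tested in a model over all 16 libraries. It passed in 0 of the 10 genes with edgeR and 0 with DESeq2, against 7.19% of 15823 genes with edgeR, and had an unadjusted p under 0.05 in 2, against 22.1% of genes. These were Hk1, with a difference of -0.54 (SE 0.218, adjusted p = 0.154), and Mgst1, with 0.53 (SE 0.244, adjusted p = 0.213). For Slc16a1 the difference was -0.34, with a 95% interval from -0.82 to 0.14, so that the rise in KO pancreas is not shown to differ from the value in KO islets. Of the 12 genes of beta cell glucose metabolism 2 differed, G6pc2 (0.99, adjusted p = 0.00235) and Slc2a2 (0.76, adjusted p = 0.00256).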

How the data were processed

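Gene expression was measured in 10 islet and 6 pancreas libraries made from polyadenylated RNA with the Kapa HyperPrep kit named in the labels. The values deposited by the authors are raw counts of reads for each gene. Trimmomatic, STAR 2.6.0, HTSeq 0.11.1, edgeR and mm10 are named in the submitters' processing notes without their roles. The sources used here do not give the annotation counted or the use of strand. Hk1os overlaps Hk1 on the opposite strand, and whether strand separated their reads is therefore not known. Timm8a1 overlaps Zdhhc9 on the same strand, so strand could not separate them. Genes overlapping any 1 of the 10 held at most 347 reads over the 10 islet libraries and 262 over the 6 pancreata, both at Zdhhc9. Zdhhc9 itself had 1154 reads in control islets, 1127 in KO islets, 3696 in control pancreata and 3137 in KO pancreata. The deposited tables also give a gene length in kb, used for levels per kilobase.

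Groups came from the titles and genotype labels. Each comparison was fitted over all genes in edgeR 4.0.16 (R 4.3.3) by its quasi-likelihood F test, after TMM scaling and the filterByExpr filter, and Benjamini-Hochberg adjustment (threshold 0.05). The SE is the fold change over the square root of F, and 95% intervals span 1.96 SE on each side. CPM values use TMM factors over all 16 libraries, whereas each fit used its own. The tissue comparison joined 2 separately deposited tables, and no value was normalized between them by the authors as far as the tables show. Ratios within a library were compared by exact permutation tests of their log2 values, two-sided, and correlations over islet libraries of CPM by 100000 permutations. The fits were tested on simulated counts.

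Replicate libraries differed by more than sampling noise (lowest chi-square per degree of freedom 6.28 for islets, 4.90 for pancreata). Each library has its own animal number, litters are not given, and p-values measure the spread between these libraries. The 10 genes, the related lists, the markers and the tests were chosen with earlier results of these data known. The genes named are the 10, Tff2, a panel of ratio partners, and up to 3 members of each related list with the lowest p among those called, or otherwise the 2 most abundant. Some results under the naming rule are not reported here. Mpc2, Smad2, Smad4, Vegfa, Bnip3, Ankrd37, the overlapping genes Hk1os and Timm8a1, and the mesenchyme genes other than Pdgfra were named outside that rule. So were the marker genes Cd74, Dbh, Th, Alb and Afp, and the sex marker Xist. Alternatives covered scaling, filters, DESeq2 1.42.0, limma-voom (limma 3.58.1), a fit over all 16 libraries, and each replicate left out. Sequences came from RefSeq GRCm38.p6 tables and the untranslated regions from GENCODE M21 on GRCm38.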

Additional observations from a re-analysis of the deposited data

Results flagged for a closer look

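In 36 groups of 5 islet libraries (10 genes in CPM and 8 ratios, in KO and in control islets), the highest and lowest library were compared with the others, and 2 stood apart by Dixon's test, where chance flags about 1 group in 20. The ratio of Ldha to Slc16a1, in counts per kilobase, was 31.9 in KO islet 122 and between 19.6 and 21.4 in the other KO islets; its Slc16a1 count was 19 reads. The ratio of Slc16a1 to Slc16a3 was 7.55 in KO islet 812 and between 1.00 and 2.69 in the other KO islets; its Slc16a3 count was 2 reads, against 8 to 13 in the others. The cause of either value was not tested.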

How the results depend on the processing

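The 10 falls in control islets against control pancreata kept their direction and their call in all 179 recomputed values, with log2 fold changes of Hk1 between -1.27 and -1.004 and of Mgst1 between -6.34 and -6.04. Library totals in place of TMM moved the median of all genes to -0.23 in that comparison. For KO against control in pancreas, edgeR called 959 genes, DESeq2 1550 and pan-epithelial scaling 9932, with 1, 3 and 9 of the 10 disallowed genes. Leaving out 1 replicate gave 0 to 1035 genes and 0 to 2 of the 10; without control 02, 08 or 13 the genes called numbered 0, 4 and 0. Library totals gave 179 lower and 779 higher, against 399 and 560 with TMM. In islets DESeq2 called 112 genes against 22 with edgeR, and leaving out 1 replicate gave 5 to 26. For the difference between the genotype effects, leaving out 1 replicate gave 515 to 1186 genes, and library totals 608 lower and 299 higher, against 514 and 623. The cause of these shifts was not tested.

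Signs turned only in values that were not called with the settings reported. In pancreas, pan-epithelial scaling gave 0.25 for Ldha, 0.33 for Mgst1, 0.34 for Smad3, 0.37 for Zdhhc9 and 0.39 for Itih5, and library totals gave 0.00044 for Smad3, 0.028 for Zdhhc9 and 0.034 for Itih5. Leaving out 1 replicate gave -0.064 to 0.10 for Igfbp4, -0.32 to 0.11 for Itih5, -0.22 to 0.023 for Mgst1 and -0.15 to 0.0096 for Zdhhc9. In islets, library totals gave 0.0083 for Slc16a1 and 0.0093 for Igfbp4, and limma-voom gave 0.0037 for Slc16a1. Leaving out 1 replicate there gave -0.32 to 0.091 for Acot7, -0.19 to 0.15 for Igfbp4, -0.12 to 0.024 for Ldha, -0.061 to 0.086 for Oat and -0.16 to 0.14 for Slc16a1. For the difference between the effects, Zdhhc9 was -0.046 with library totals, -0.0058 with upper-quartile scaling and -0.0088 with limma-voom. Leaving out 1 replicate gave -0.19 to 0.14 for Igfbp4, -0.47 to 0.054 for Itih5, -0.12 to 0.029 for Oat and -0.028 to 0.13 for Zdhhc9.

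No paired analysis was possible because the groups share no replicate numbers. Slc16a1 had 24 to 41 reads per control islet and Mgst1 30 to 50, and the SE of their genotype effects in islets was 0.249 and 0.209. Acot7 and Itih5, with more reads, had SEs of 0.256 and 0.285. The part of depth in these errors was not tested.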
